A study of Mus musculus with 4 samples.

Results

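The 84 genes described here encode the proteins of the cytosolic ribosome and 7 close paralogs of them. They were taken by gene symbol from the 30406 Ensembl identifiers listed in all 4 count tables, leaving out pseudogenes and the Rps6k kinases. No measured value entered this rule, but earlier results of these data were known when the genes were chosen. The core set held 77 genes, of which 43 belong to the large subunit, 31 to the small subunit and 3 to the stalk of the large subunit (Rplp0, Rplp1 and Rplp2). The paralogs were Rpl3l, Rpl7l1, Rpl10l, Rpl22l1, Rpl36al, Rpl39l and Rps27l. Mammary tissue of female wild-type C57B6 mice (given as C57 B6/N in the study's methods) was profiled by 10x Genomics 3′ single-cell RNA sequencing at the embryonic stages E13.5, E14.5 and E15.5 and on the day of birth (P0), with 1 library per stage. No treatment, transgene or mutation was involved. Each library pooled several females and came from its own dissection session. Cells carrying CD45, CD31 or Ter119 had been sorted away, and EpCAM+ and EpCAM- cells had both been collected, so the number of cells in each tissue class follows the sort. The P0 tissue was digested with another enzyme ratio and passed through red cell lysis. Stage, pool of animals, session and library therefore cannot be told apart and no test between stages was possible. Tissues were tested only with the 4 libraries as pairs, and each interval given is a 95% interval that covers counting error only.

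Ribosomal proteins assemble with ribosomal RNA in the nucleolus, and each mature ribosome carries 1 copy of nearly all of them. Their transcripts are abundant in growing cells. Many start with a cytosine followed by a run of pyrimidines, the 5′ terminal oligopyrimidine (TOP) motif through which mTOR and Larp1 set their translation. A few core genes have paralogs whose products can take the place of the usual protein, such as Rpl22l1 for Rpl22 and Rpl39l for Rpl39. Rpl39l is best known from the male germ line.

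The annotated transcription starts of RefSeq (build GRCm38.p6) show this motif. A start was listed for 64 of the 84 genes. In 13 of these 64 genes (20.3%) an annotated start base was a C followed by at least 4 of C or T. This held for 3.01% of all 27025 genes of the promoter table. Such a run was counted as at the start whether it began there or further upstream. When the run could begin anywhere from 10 bases before to 10 bases after the start, it was found in 39 of the 64 genes (60.9%) and in 34.4% of all genes. None of the 7 paralogs had such a run at a start, and 5 of them had it within 10 bases. Below are 30 bases around selected starts, read 5′ to 3′ on the coding strand with the annotated start at base 16. Capitals mark only the first run found from 10 bases before the start onward, and any later run is left in small letters. The first 4 are core genes whose run begins at or just upstream of the start, and the others are paralogs or core partners of paralogs.
Rpl38 (chr11:114668565-114668594, + strand): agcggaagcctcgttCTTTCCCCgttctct
Rps15a (chr7:118116133-118116162, - strand): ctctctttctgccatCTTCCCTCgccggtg
Rps6 (chr4:86857353-86857382, - strand): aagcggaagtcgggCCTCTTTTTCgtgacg
Rps10 (chr17:27635230-27635259, - strand): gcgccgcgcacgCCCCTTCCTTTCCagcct
Rpl39 (chrX:37085208-37085237, - strand): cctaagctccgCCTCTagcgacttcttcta
Rpl39l (chr16:10170213-10170242, + strand): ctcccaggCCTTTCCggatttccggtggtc
Rps27 (chr3:90213634-90213663, - strand): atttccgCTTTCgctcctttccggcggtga
Rpl36a (chrX:134585639-134585668, + strand): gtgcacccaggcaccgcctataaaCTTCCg
Rpl36al (chr12:69184053-69184082, - strand): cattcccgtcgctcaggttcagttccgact
Rpl22l1 (chr3:28805493-28805522, + strand): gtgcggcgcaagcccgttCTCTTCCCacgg
In Rpl38 and Rps15a the run began at the annotated start itself, in Rps6 it began 1 base upstream, and no run lay in the window of Rpl36al. The marked run of Rps27 ends before the start, but its unmarked bases from base 16 on also meet the rule. Rps27 thus has a run at the start as well. A match to these letters is a description of the sequence, and a window without one says nothing about how the gene is regulated. At P0 the epithelium over mesenchyme folds of the core genes with the run at the start had a median of 1.38 over 13 genes, against 1.43 over the 44 core genes with another listed start.

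UMIs (unique molecular identifiers) count distinct captured transcripts. A cell was kept if it had 5000 UMIs or more, of which no more than 6% were mitochondrial. This left 235 cells of the E13.5 library, 76 of E14.5, 816 of E15.5 and 503 of P0. A cell was called epithelium or mesenchyme by the larger sum of Epcam, Krt8, Krt18, Krt5 and Krt14 against Col1a1, Col1a2 and Col3a1, and 3 tied cells were left out. This rule does not separate mammary epithelium from skin epidermis. The study removed skin cells after clustering, but no cell annotation was used here, so the epithelial values may hold both. The study counted far fewer mammary epithelial cells at E13.5 than the 98 cells classed as epithelium here. At E15.5 and P0 its counts were nearer to the 532 and 230 cells classed here. Epithelial values at E13.5 may therefore come largely from cells outside the study's mammary set. The groups held 31 to 532 cells and 838030 to 14293755 UMIs. Median depth was 16438 to 26725 UMIs per cell in the embryonic groups and 9973 and 8743 in P0 epithelium and mesenchyme. Summed epithelial markers reached 3707 to 15068 UMIs per 1000000 (CPM) in epithelium and 43.0 to 394 CPM in mesenchyme. The mesenchymal markers reached 7066 to 83097 CPM in mesenchyme and at most 462 CPM in epithelium. Both lists include the class genes of their side, so this separation was in part set by the rule and is no separate check of it. Of 7 lists for other cell types, the red cell genes took 1.04% of the UMIs of P0 mesenchyme, where 5 of 273 cells had 10 or more such UMIs. E13.5 mesenchyme had 2 cells with 10 or more UMIs of muscle genes, P0 mesenchyme had 2 each by the immune, endothelial and muscle lists, and E15.5 epithelium had 1 by the pericyte list. The Schwann and melanocyte lists reached 10 UMIs in no cell. At most 1 cell barcode was shared between any pair of libraries. The E15.5 table lists 31053 genes and names Cell Ranger 3.1.0 in its header, and the others list 32285 genes and name Cell Ranger 6.0.0.

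The share of a group's UMIs on all 84 genes was 28.6% in E13.5 epithelium and 25.2% in E13.5 mesenchyme, and 22.8% and 19.7% a day later. At E15.5 the order was the opposite, with 22.1% in epithelium and 25.2% in mesenchyme. At P0 it was 25.4% in epithelium and 18.0% in mesenchyme. The epithelium over mesenchyme ratio was thus 1.14 (1.13 to 1.14) in the E13.5 library and 1.16 (1.15 to 1.17) in that of E14.5. It was 0.875 (0.873 to 0.876) for E15.5 and 1.41 (1.41 to 1.42) for P0. Epithelium had the larger share at 3 stages and mesenchyme at 1. Over the 4 libraries the log2 ratio averaged 0.18 ± 0.28 (SD, n = 4), with a two-sided p of 0.375 by an exact sign-flip permutation test, which cannot go below 0.125 with 4 pairs. Single cells spread widely around these values. At E15.5 the middle 50% of epithelial cells ran from 18.9% to 23.9% and that of mesenchymal cells from 23.0% to 28.5%. At P0 these ranges were 19.8% to 29.6% and 14.7% to 21.8%. The lowest group, P0 mesenchyme, held cells from 1.28% to 45.6%. With the 11 cells of other types left out, its share was 18.3% in 262 cells.

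**Figure D1:**
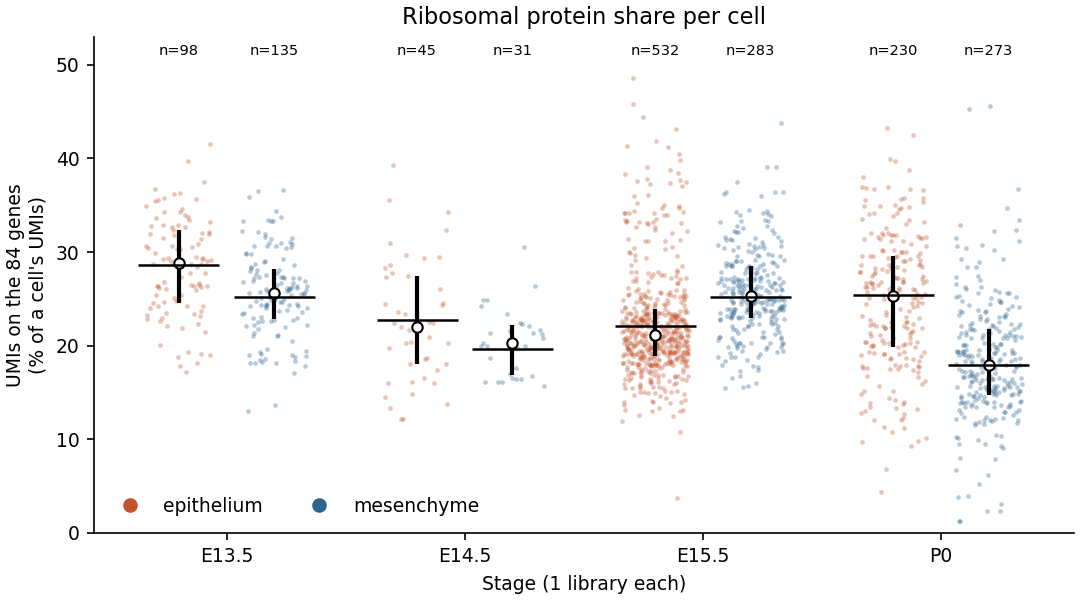
Share of each cell's UMIs on the 84 ribosomal protein genes (vertical axis, %) by stage and tissue class, 1 point per cell, with the middle 50% of cells as a thick bar, the cell median as an open circle and the pooled share as a horizontal line. Epithelium sits above mesenchyme at 3 stages (28.6%, 22.8% and 25.4% against 25.2%, 19.7% and 18.0% from E13.5 to P0, leaving out E15.5) and below it at E15.5 (22.1% against 25.2%).

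Other measures also differed between the groups. The 3 collagen genes of the class rule took 7.43% of the UMIs of P0 mesenchyme, against 0.484% to 1.51% of embryonic mesenchyme, and the 20 highest other genes took 20.4% there against 9.73% to 12.8% in the other 7 groups. With mitochondrial genes and the 8 class genes out of the denominator, the P0 ratio was 0.44 on the log2 scale against 0.50 with them. Cells with at least 2 UMIs of Top2a and Mki67 after thinning to 5000 UMIs, called cycling here, were 29.6%, 11.1%, 12.2% and 7.39% of epithelium from E13.5 to P0 and 27.4%, 32.3%, 25.1% and 1.47% of mesenchyme. Without them the E15.5 ratio was -0.22 on the log2 scale against -0.19 with them, and the E14.5 ratio 0.08 against 0.21. Among cells of 5000 to 15000 UMIs alone, the E13.5 ratio was 0.062 against 0.19, from 27 epithelial and 49 mesenchymal cells. The E15.5 ratio was then -0.35, and that of E14.5 was -0.17 from 5 epithelial and 3 mesenchymal cells. Apart from these values, the part of depth, cycling and session in the share was not tested.

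Gene by gene, the members moved together by small factors. A level filter of 100 CPM, averaged over both groups of a comparison, kept 80 members in each comparison, all 77 core genes and 3 paralogs, and members past 1.5-fold were counted. The 4 members under the filter were Rpl3l, Rpl7l1, Rpl10l and Rpl39l. At E13.5, 74 of the 80 had an epithelium over mesenchyme fold above 1, and none was past 1.5-fold in either direction, against 14.2% of all genes tested higher and 15.1% lower. At E14.5, 76 of 80 were above 1 and again none was past 1.5-fold, against 18.7% higher and 19.4% lower. At E15.5, 78 of 80 were below 1, none was past 1.5-fold higher (27.1% of all genes) and 1 was lower (17% of all genes). The median fold of the core genes was 1.15, 1.17 and 0.879 at these stages, beside medians of 1.03, 1.07 and 1.08 over all genes tested. Relative to these medians 12, 15 and 79 of the 80 members were lower in epithelium.

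The tissues were also compared over the 4 libraries as pairs, a test chosen after seeing the data that averages over the stages and treats them as replicates. Of 82 members tested, none was higher in epithelium at an adjusted p below 0.05 by edgeR's quasi-likelihood test, against 9.12% of all 10364 genes tested, and 1 was lower (Rpl39l), against 11.7% of all genes. At an unadjusted p below 0.05 by that test, 4 of the 82 members passed. How many of all genes passed at that level was not counted, so this number tells nothing about the members as a set. The median log2 difference of the members was 0.19 and that of all genes 0.0097. The stalk-base protein Rpl12 came next, at 0.48 ± 0.16 (SE, adjusted p = 0.0787 by the same test). It passed only when the E15.5 library, already seen to have the opposite share ratio, was left out (adjusted p = 0.0479 by edgeR). Leaving out any other library gave no member higher in epithelium, so that fit is no separate support for Rpl12.

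Certain members kept their place at more than 1 embryonic stage. Rps3, a small subunit protein at the mRNA entry side, was among the 3 highest at all 3, with folds of 1.35 (1.30 to 1.40), 1.33 (1.254 to 1.42) and 1.03 (1.01 to 1.04). The last value lies under the all-gene median of 1.08, so relative to that median its direction at E15.5 is the opposite. Rpl10, a late-joining protein of the large subunit, was the lowest at E13.5 (0.907, 0.876 to 0.940) and at E14.5 (0.937, 0.880 to 0.998). Rps2 led at E13.5 with 1.41 (1.37 to 1.46), followed by Rpl36al with 1.39 (1.29 to 1.497), and Rpl27 (0.969, 0.923 to 1.02) was at the low end. At E14.5 Rpl12, a protein at the base of the stalk, led with 1.45 (1.37 to 1.55) and Rpl26 followed with 1.35 (1.27 to 1.43). The low end there held Rps27l (0.977, 0.821 to 1.16) and Rpl23a (0.980, 0.924 to 1.04), both with intervals that include 1. At E15.5 the paralog Rps27l was the member past 1.5-fold, at 0.657 (0.623 to 0.694). It was followed by Rplp1 at 0.688 (0.680 to 0.697) and Rpl41 at 0.705 (0.697 to 0.712). Rpl36al, at 1.14 (1.09 to 1.19), and Rpl27, at 1.00 (0.972 to 1.03), stood at the other end.

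**Figure D2:**
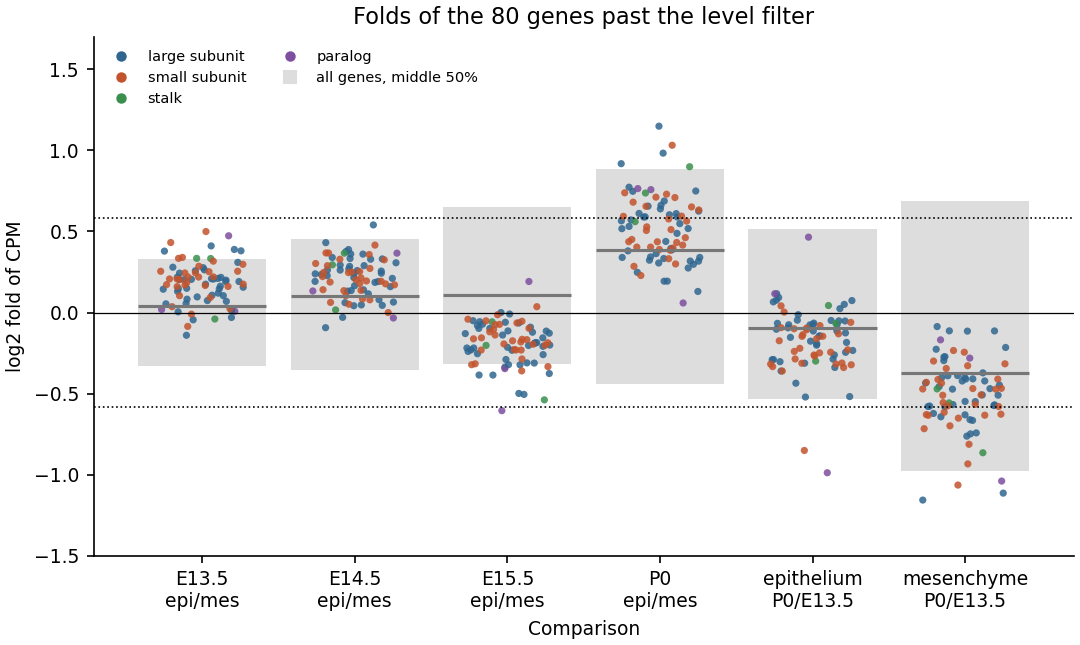
Folds of CPM (vertical axis, log2) of the 80 genes past the level filter in 4 epithelium over mesenchyme comparisons and 2 comparisons of P0 with E13.5, 1 point per gene, coloured by subunit or paralog. Grey boxes and lines give the middle 50% and median of all genes tested and dotted lines mark 1.5-fold; the members form a narrower band than all genes in each comparison, and 32 of them lie above the upper dotted line at P0.

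At P0 each of the 80 members past the filter was higher in epithelium on the CPM scale, but 22 of them lay below the median fold of all genes. Of these, 32 (40%) were past 1.5-fold, close to the 39.8% of all genes tested, and none was lower, against 23.1% of all genes. The core median was 1.43 (middle 50%, 1.30 to 1.56) and that of all genes 1.31 (0.737 to 1.85), a shift of 0.39 on the log2 scale. After division by the all-gene median, 3 members were past 1.5-fold higher, and the share of all genes at that scaling is not given here. Rpl3, which binds near the peptidyl transferase centre, was 2175, 1871, 1679 and 2010 CPM in epithelium from E13.5 to P0 and 1961, 1430, 1969 and 906 CPM in mesenchyme. Its P0 mesenchyme level was the lowest of the 8, and its P0 fold of 2.22 (2.11 to 2.33) the highest of the members. Rps19, a small subunit protein needed for rRNA processing and mutated in Diamond-Blackfan anaemia, ran from 3285 to 4862 CPM in 7 groups and was 1909 CPM in P0 mesenchyme, a P0 fold of 2.04 (1.97 to 2.12). Rpl12 was 1.98 (1.90 to 2.06). The paralog Rpl22l1 was 1.04 (0.972 to 1.12), Rpl38 was 1.09 (1.06 to 1.13) and Rpl24 was 1.14 (1.11 to 1.18), and these 3 are among the 22 whose direction turns with that scaling.

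The comparisons of P0 with E13.5 use the same P0 and E13.5 groups again, so their values are not separate support for those above. The epithelial comparison may also mix cell type with stage, since the E13.5 group may hold much skin epidermis. In epithelium the core median was 0.903 beside 0.937 over all genes. None of 80 members was past 1.5-fold higher (23.6% of all genes) and 2 were lower (23.1% of all genes). These were Rpl22l1 at 0.504 (0.474 to 0.536) and Rps2 at 0.555 (0.537 to 0.573). Rps2 was 4175, 3055, 3038 and 2315 CPM in epithelium from E13.5 to P0, and 2954, 2369, 3406 and 1977 CPM in mesenchyme. Its epithelial levels thus followed the order of the stages, although E14.5 and E15.5 were nearly equal, and its mesenchymal ones did not. Rpl29 came next at 0.697 (0.667 to 0.728). Rps27l was the highest, at 1.38 (1.24 to 1.53), ahead of Rpl36al and Rpl17 at 1.08 each.

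In mesenchyme each of the 80 members past the filter was below 1 on the CPM scale, of which 18 lay above the median fold of all genes, with a core median of 0.703 beside 0.771 over all genes. None was past 1.5-fold higher (26% of all genes) and 23 were lower (28.8% of the members, 40% of all genes). After division by the all-gene median 4 were lower, again without the share of all genes at that scaling. The lowest were Rpl27 at 0.449 (0.423 to 0.475), Rpl3 at 0.462 (0.439 to 0.486) and Rps19 at 0.478 (0.462 to 0.495). The highest were Rpl24 at 0.942 (0.910 to 0.975), Rpl38 at 0.925 (0.896 to 0.954) and Rpl35a at 0.924 (0.895 to 0.955), which are among those 18. Rpl38, which has been linked to translation of Hox mRNAs in the embryo, was 2517 to 3325 CPM in all 4 mesenchymal groups.

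**Figure D3:**
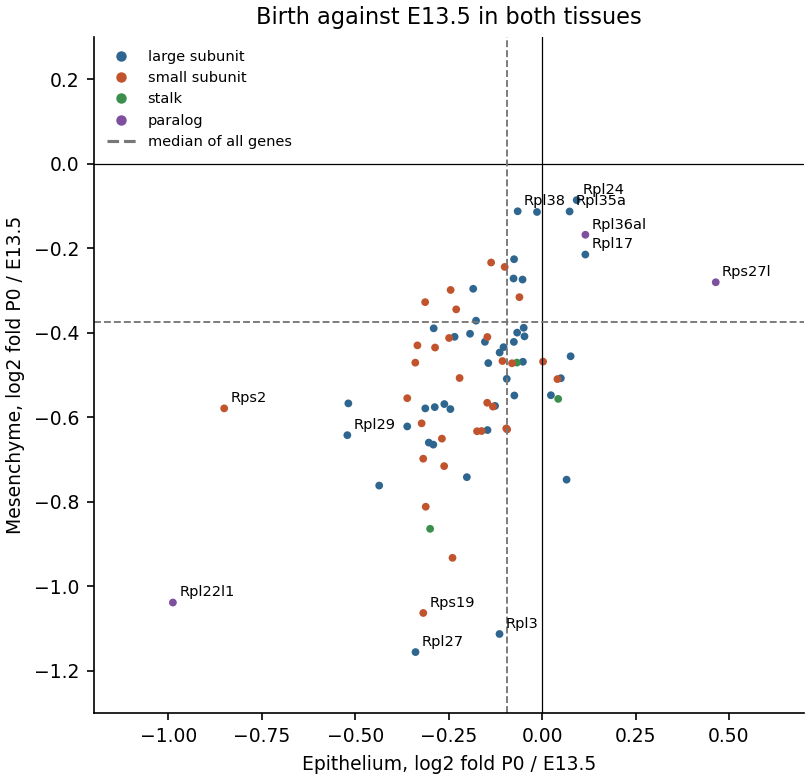
Fold of each of the 80 genes at P0 over E13.5 in epithelium (horizontal axis, log2) and in mesenchyme (vertical axis, log2), 1 point per gene, with the named genes labelled and dashed lines at the medians of all genes. Rpl22l1 is low in both tissues (0.504 and 0.487), Rps2 lies at the left (0.555 in epithelium), and Rpl27, Rpl3 and Rps19 lie at the bottom (0.449, 0.462 and 0.478 in mesenchyme).

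The order of the core genes by level changed little. Over the 28 pairs of groups, Spearman's rho of the 77 levels was 0.885 to 0.983, a description across genes that share libraries. UMIs count captured 3′ ends, so these CPM are not divided by transcript length, but capture and unique alignment also set a gene's level. Rpl41, the shortest ribosomal protein, averaged 6645 CPM over the 8 groups, Rps29 6337, Rps28 4681 and Rpl39 4653. At the other end were Rpl4 with 1177 CPM, Rpl27 with 1254, Rpl31 with 1337, Rpl29 with 1340 and Rpl7a with 1378. Summed UMIs of large subunit genes, stalk included, were 1.13 to 1.27 times those of small subunit genes in the 8 groups, with the 2 highest ratios at P0. These sums set 43 large subunit and 3 stalk genes against 31 small subunit genes. A ratio above 1 therefore does not mean a higher level per gene. Relative to the core median, 74 of the 77 core genes lay within 1.2-fold in the tissue comparison of E13.5, 75 in that of E14.5, 74 in that of E15.5 and 67 in that of P0.

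The stalk proteins recruit elongation factors, and Rplp1 and Rplp2 form dimers on Rplp0. Rplp0 was 4381, 3310, 3416 and 4181 CPM in epithelium from E13.5 to P0 and 3479, 2569, 3931 and 2509 CPM in mesenchyme. Rplp1 was 4768, 4098, 3815 and 4912 CPM in epithelium and 4902, 4052, 5541 and 3332 in mesenchyme. Rplp2 was 4008, 3122, 2753 and 3257 CPM in epithelium and 3180, 2546, 2864 and 1747 in mesenchyme. The 3 did not move in step between the tissues at E15.5, where the folds were 0.869 for Rplp0, 0.688 for Rplp1 and 0.961 for Rplp2. At P0 they were 1.67, 1.47 and 1.86.

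**Figure D4:**
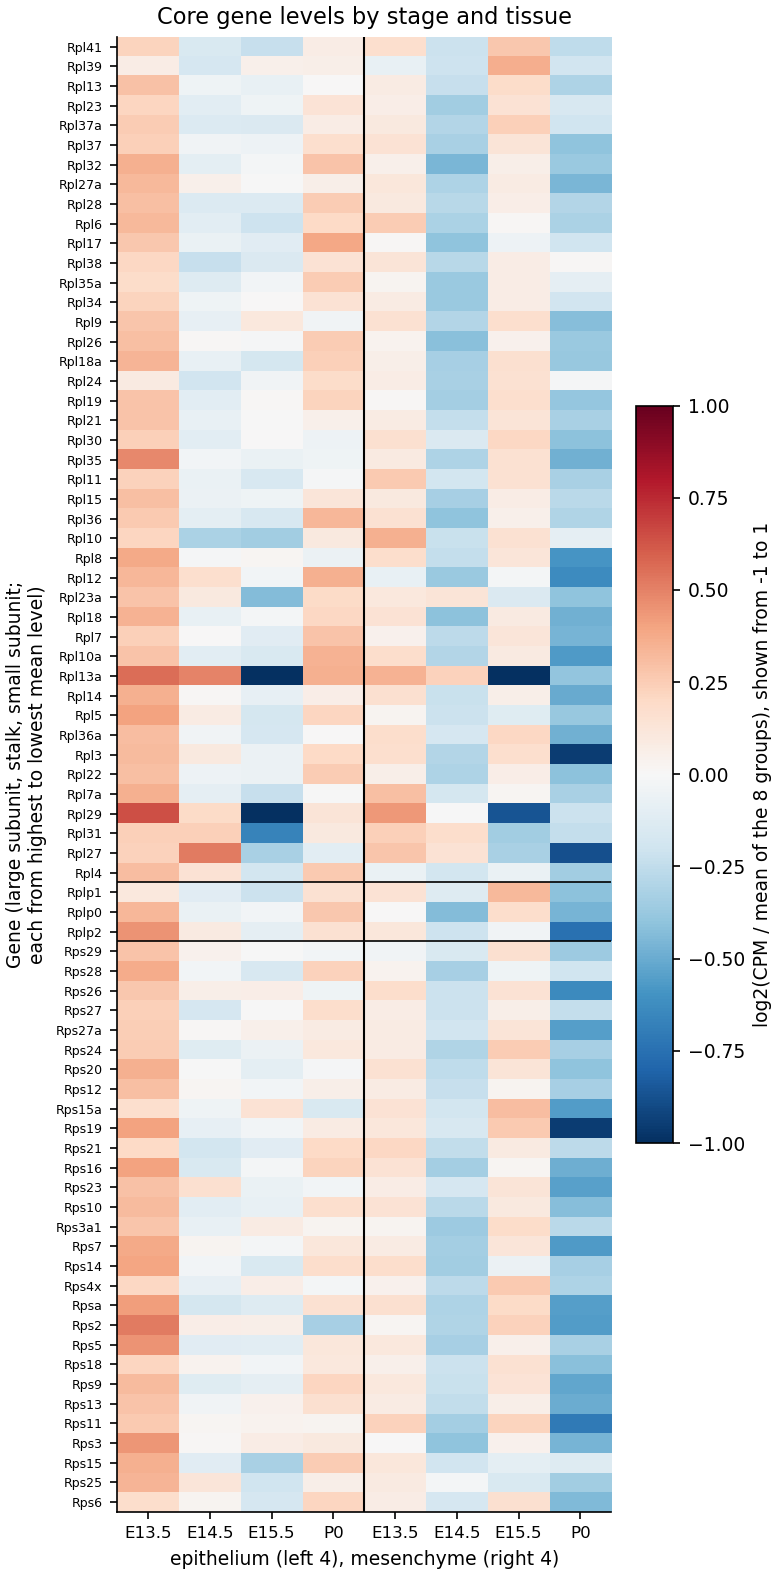
Levels of 75 of the 77 core genes (rows; large subunit, stalk and small subunit, each from highest to lowest mean level) in the 8 groups, as log2 of CPM over the gene's mean of the 8 groups, shown from -1 to 1. Rows change together by group, with P0 and E14.5 mesenchyme mostly low and E13.5 epithelium mostly high, and Rpl13a and Rpl29 stand out as low in both E15.5 groups.

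Rpl39l (chromosome 16, 10170226 to 10174911, GRCm38) had the largest tissue ratio at each stage among members with more than 1 UMI in all. Its UMIs numbered 1, 0, 4 and 0 in epithelium from E13.5 to P0, and 20, 28, 202 and 53 in mesenchyme. These correspond to 8.30, 33.4, 27.8 and 21.1 CPM in mesenchyme and at most 0.490 CPM in epithelium. The 8 groups do not overlap by tissue, but how many of all genes separate in the same way was not counted. In the fit over 4 libraries described above it was the 1 member that passed, lower in epithelium in 4 of 4 libraries, with an adjusted p of 0.00172 by edgeR's quasi-likelihood test (0.000986 to 0.0263 over the alternatives). Rpl39l entered that fit through its mesenchymal UMIs alone, since its epithelial UMIs were too few for the expression filter. The p is therefore no separate support for a tissue difference. The mesenchyme over epithelium ratio was 16.95 (2.71 to 703) at E13.5 and 99.4 (38.2 to 368) at E15.5. Against a floor of 3 UMIs per group it was at least 14.2-fold at E14.5 and at least 18.4-fold at P0, where the exact lower limits of the ratio are 10.8 and 14.46. In E15.5 mesenchyme 74 of 283 cells (26.1%, exact binomial 21.1 to 31.7) had a UMI of it, with up to 11 in 1 cell, against 4 of 532 epithelial cells (0.752%, 0.205 to 1.91), at median depths of 24376 and 24696 UMIs. After thinning to 5000 UMIs these shares were 12.4% and 0.188%. At P0, 33 of 273 mesenchymal cells (12.1%) and 0 of 230 epithelial cells had one, and the latter allows a share of cells with a UMI of up to 1.30% (exact binomial upper limit 1.59%) at a median depth of 9973 UMIs, which does not limit the share of cells that express the gene. In E15.5 mesenchyme, 25.4% of cycling and 26.4% of other cells had a UMI. Its partner Rpl39 was 4024 to 5987 CPM in mesenchyme and 4148 to 4893 in epithelium, so Rpl39l made up at most 0.824% of the pair's UMIs.

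Rpl22l1 was the paralog with the most UMIs, at 1304, 1303, 1257 and 658 CPM in epithelium from E13.5 to P0 and 1297, 1189, 1598 and 631 CPM in mesenchyme. Both P0 values lay below all 6 embryonic ones, and the P0 over E13.5 fold was 0.504 (0.474 to 0.536) in epithelium and 0.487 (0.458 to 0.517) in mesenchyme. Rpl22 itself had folds of 0.965 (0.926 to 1.01) and 0.722 (0.689 to 0.757). Per 100 UMIs of Rpl22 there were 65.2 (62.1 to 68.5) of Rpl22l1 in E13.5 epithelium and 34.1 (32.2 to 36.0) at P0, and 76.7 (73.2 to 80.4) and 51.7 (48.6 to 55.0) in mesenchyme. At each of the 4 stages this ratio was lower in epithelium than in mesenchyme.

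Rpl36al went the other way between the tissues. It was 728, 660, 456 and 789 CPM in epithelium and 524, 512, 399 and 467 in mesenchyme, higher in epithelium at all 4 stages, by 1.69-fold (1.57 to 1.82) at P0. Over the 4 libraries it was 0.44 ± 0.15 (SE) higher on the log2 scale, with an adjusted p of 0.0816 by edgeR's quasi-likelihood test. Rps27l, a p53 target gene in other settings, was 273, 258, 218 and 377 CPM in epithelium and 270, 264, 331 and 222 in mesenchyme, near equal at E13.5 and E14.5 and of opposite order at E15.5 and P0. Rpl7l1, a nucleolar protein linked to ribosome biogenesis, ran from 39.5 to 119 CPM with its highest level in E14.5 epithelium. Rpl3l, a muscle paralog, had 1 UMI in all, and Rpl10l, a testis paralog, had 1 UMI in all. These levels are at the floor of detection at this depth.

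**Figure D5:**
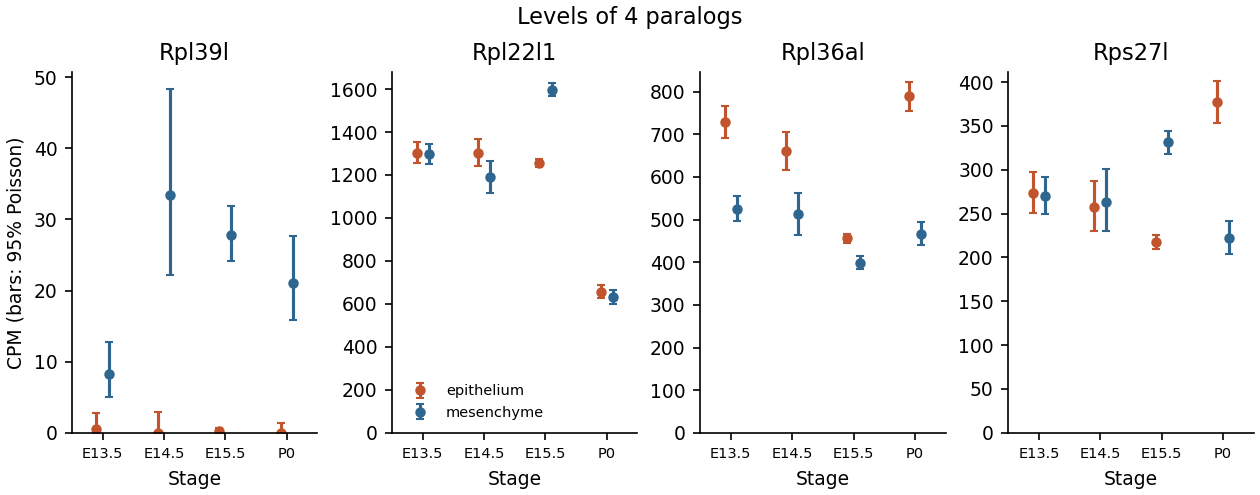
Levels (vertical axes, CPM, each from 0) of Rpl39l, Rpl22l1, Rpl36al and Rps27l by stage and tissue, with 95% Poisson intervals for counting error as bars. Rpl39l is seen in mesenchyme with at most 0.490 CPM in epithelium, Rpl22l1 is lowest at P0 in both tissues, and Rpl36al is higher in epithelium at all 4 stages.

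A few core genes had low values in both tissues of the E15.5 library. Rpl13a, a large subunit protein also known as a translational silencer in interferon-treated cells, was 527 and 688 CPM in E15.5 epithelium and mesenchyme and 1477 to 2850 CPM in the other 6 groups. It was the only member at least 2-fold off both E14.5 and P0 in both tissues. Rpl29 was 590 and 738 CPM at E15.5 and 1156 to 2098 CPM elsewhere. Rpl31 was 840 and 1050 CPM at E15.5 and 1134 to 1579 CPM elsewhere. Of the 84 members, 19 share sequence with a row that is no member. Shared here means at least 20% of the 31-base words in the last 300 bases of their GENCODE transcripts. A read lying wholly in a stretch shared with another row cannot be placed on 1 gene, and how many reads this affected was not measured. For 11 members, among them Rpl13a, Rpl29, Rpl27, Rplp1 and Rps2, such a row is listed in the E15.5 table alone. Gm45713, the partner of Rpl13a, had 0 and 1 UMIs in E15.5 epithelium and mesenchyme. Rpl27-ps3 had 675 and 312 UMIs there (47.2 and 43.0 CPM), and Gm10073, the partner of Rplp1, had 337 and 237. Rpl31 has no such partner. The part of the gene list in these low values was not tested. The E15.5 tissue ratio compares cells of 1 table, and without Rpl13a its log2 value stayed at -0.19. Rpl13a held too small a part of the members' UMIs to move that ratio far. The other members with such a row were kept in it, so the part of the gene list in the ratio was not tested.

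Within groups the share varied with a cell's other properties, described here over cells of 1 library each. Its Spearman correlation with depth was -0.64 over 31 cells of E14.5 mesenchyme, between -0.28 and -0.23 in the other mesenchymal groups, and from -0.14 to 0.30 in the epithelial ones. Cycling cells had the smaller pooled share in 5 of 8 groups, such as 19.4% against 22.6% in E15.5 epithelium and 23.1% against 26.3% in E15.5 mesenchyme. They had the larger one in E14.5 epithelium and both P0 groups, from 4 to 17 cycling cells. Over 532 E15.5 epithelial cells thinned to 5000 UMIs, 689 other genes averaging at least 1 UMI per cell were compared. Those closest to the share were Fau (0.60), which carries a small subunit protein, the elongation factor Eef1a1 (0.58), the ribosome-bound scaffold Rack1 (0.52), Tpt1 (0.48) and Cstdc5 (0.48). Eef1b2, Naca, Gm10076 and Npm1 followed, at 0.40 to 0.29. The other end held Malat1 (-0.39), a nuclear RNA, Basp1 (-0.37), Sox11 (-0.37), Myh10 (-0.35), Map1b (-0.34) and Actb (-0.32), then Krt8, Cldn7, Tpm4 and Ascc3 at -0.31. Shares of 1 total constrain each other, and no p is attached to these values. The 532 cells may hold skin epidermis beside mammary epithelium, and the part of such a mixture in these correlations was not tested.

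Other genes of translation were counted by lists, to be read against the shares of all genes tested. These were 39.8% higher and 23.1% lower for the tissues at P0, 27.1% and 17% for those at E15.5, and 26% and 40% for P0 over E13.5 in mesenchyme. Among further ribosomal parts, Fau and Rack1 had P0 epithelium over mesenchyme folds of 1.49 and 1.51, beside the core median of 1.43. At E15.5 Fau was 1.15, above 1 where the core median was 0.879, and Rack1 was 0.864. The elongation list of 9 genes also holds Naca, Btf3 and Tpt1, which are no elongation factors. In P0 epithelium 3 of the 9 were past 1.5-fold higher and none lower. These were Eif5a (1.96), Btf3 (1.87) and Naca (1.54). No Eef gene passed, with Eef1b2 (1.45) the highest of them and Eef1d (0.961) and Eef2 (1.07) lowest of the list. In mesenchyme 5 of the 9 were lower at P0 than at E13.5, Naca and Btf3 among them. Eef1g was lowest at 0.431, then Eif5a at 0.540, and at the other end were Tpt1 at 1.24 and Eef2 at 1.195. Of 22 initiation genes past the filter at P0, 11 were higher in epithelium and none lower (median 1.57), from Eif6 (2.68), which keeps free large subunits from joining, and Eif1ax (2.65) down to Eif4b (0.820) and Eif4a2 (0.690). At E15.5, 6 of 23 were higher and 1 lower (median 1.12), led by Eif6 (2.94) and Pabpc1 (1.90).

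Of the 35 genes of ribosome biogenesis, 9 passed the filter at P0 and 4 were higher in epithelium, beside 39.8% of all genes tested. Wdr43 (2.03) and Ncl (1.61) were highest and Nop58 (0.805) and Gnl3 (1.01) lowest. In mesenchyme 4 of 11 were lower at P0 than at E13.5, beside 40% of all genes. These included Fbl (0.396) and Npm1 (0.415), nucleolar proteins, while Nop58 was 1.47 and Ddx21 1.249. The 78 genes of the mitochondrial ribosome had a far lower level, at 0.243% to 0.461% of UMIs by group, and 2 to 10 of them passed the filter. At E15.5, 1 of 7 was higher in epithelium and 2 were lower (median 0.770), beside 27.1% and 17% of all genes. The lower ones were Mrpl52 at 0.533 and Mrpl33 at 0.593. Of the 7 regulators, 3 passed the filter at P0 and 2 of these were higher in epithelium, beside 39.8% of all genes. Myc, a transcriptional activator of ribosome genes, was 47.3 CPM in E13.5 mesenchyme and 215 CPM at P0, a fold of 4.54 (3.70 to 5.61), while the core median there was 0.703. Its relatives Mycn and Mycl, both under the level filter, went the other way. They had 53 and 24 UMIs in E13.5 mesenchyme and 0 each at P0. Larp1, which binds TOP mRNAs, was 141 CPM in P0 epithelium and 73.0 in mesenchyme, 1.93-fold (1.62 to 2.32).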

How the data were processed

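The authors deposited, per library, a gene by barcode matrix of UMI counts from Cell Ranger, not normalized. The submitters' notes name version 6.0.0 and build mm10, while the header of the E15.5 table names 3.1.0. Cells were filtered and classed as described with the results. UMIs were summed per stage and class, and CPM are UMIs per 1000000 UMIs of the group. Doublets had been gated out at the sort, and no doublet caller was run. Folds are ratios of CPM, taken for genes with a mean of at least 100 CPM over both groups. Counts and shares carry exact Poisson and exact binomial (Clopper-Pearson) 95% intervals and ratios carry exact conditional binomial ones. With 1 library per stage no test between stages was made. Tissues were tested over the 4 libraries, with the library as a block, by edgeR's quasi-likelihood test (glmQLFit, TMM, filterByExpr, Benjamini-Hochberg adjustment over all genes tested) on the 8 sums, a test added after seeing the data. Named genes are the 3 highest and 3 lowest members of each comparison, the 5 highest and 5 lowest core genes by mean level, the stalk, the paralogs with their partners, members off at E15.5, and the 2 highest and 2 lowest of each other list; a few further values were chosen after they were seen, and 3 genes that these rules name are not reported here. The members and lists were chosen with earlier results of these data known. Cell barcodes, gene positions (GENCODE M21, GRCm38) and promoter sequences (RefSeq, GRCm38.p6) were joined by identifier or symbol. Fold, interval and edgeR code was tested on simulated data. Python 3.11.15, numpy 2.4.6, pandas 2.3.3, scipy 1.17.1, matplotlib 3.10.9, R 4.3.3 and edgeR 4.0.16 were used.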

Additional observations from a re-analysis of the deposited data

Results flagged for a closer look

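The epithelium over mesenchyme ratio of the ribosomal protein share was -0.19 on the log2 scale at E15.5 and 0.19, 0.21 and 0.50 in the other libraries, from E13.5 to P0. It was picked out because the E15.5 library went the opposite way from the other 3, and with 1 library per stage the difference was not tested. Gm10076, a row outside the members that shares 37.8% of the 31-base words in the last 300 bases of Rpl41 transcripts, held 5485 UMIs in E15.5 epithelium. Its level was 568 and 542 CPM in E13.5 epithelium and mesenchyme and 384 and 562 at E15.5, but 95.03 and 117 at E14.5 and 102 and 99.3 at P0, while Rpl41 itself ran from 5581 to 8016 CPM. Barcodes with at least 5000 UMIs that were left out for more than 6% mitochondrial UMIs gave pooled ribosomal protein shares of 10.6% (E13.5, 22 barcodes), 16.3% (E14.5, 35 barcodes), 25.001% (E15.5, 274 barcodes) and 17.9% (P0, 40 barcodes), against 26.8%, 21.5%, 23.1% and 21.8% of all kept cells. At E15.5 alone the left-out barcodes had the larger pooled share, though their median of 21.4% was below the 22.7% of the kept cells.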

How the results depend on the processing

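Log2 share ratios are given here in the order of the report (epithelium over mesenchyme for each stage, from E13.5 to P0, then P0 over E13.5 in epithelium and mesenchyme), with main values of 0.19, 0.21, -0.19, 0.50, -0.17 and -0.49. Thinned to 5000 UMIs they were 0.16, 0.14, -0.20, 0.42, -0.21 and -0.48. In cells of 5000 to 15000 UMIs they were 0.062, -0.17, -0.35, 0.43, -0.16 and -0.52, and E14.5, with 5 and 3 cells, was the 1 reversal in all settings. Without cycling cells they were 0.16, 0.085, -0.22, 0.49, -0.23 and -0.56. The strict class rule gave 0.19 at E13.5, -0.20 at E15.5 and -0.47 in mesenchyme. A minimum of 3000 UMIs gave 0.24 at E14.5 and 0.49 at P0. A maximum of 10% mitochondrial UMIs gave 0.23 (E14.5), -0.13 (E15.5) and 0.49 (P0). The denominator without mitochondrial and class genes gave 0.44 at P0, -0.15 in epithelium and -0.41 in mesenchyme. Without cells of other types, an alternative chosen after seeing the data, the values were 0.20 at E13.5, 0.47 at P0 and -0.45 in mesenchyme. Leaving out Rpl13a, or adding pseudogene rows (also chosen after seeing the data), moved no ratio beyond its counting interval. Neither could move a ratio far, since Rpl13a is 1 of 84 genes and the pseudogene rows held 0.0761% to 0.163% of the members' UMIs. These rows were the ones with a -ps symbol and Rps27rt. Rows with a Gm symbol that share sequence with a member were not added. Among them Gm10076 held 5485 UMIs in E15.5 epithelium, against 3353 on the rows that were added.

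The share of all genes is not given here for the other settings, so the member counts at those settings tell nothing about the members as a set. The number of members past 1.5-fold higher at P0 was 32 (40%, beside 39.8% of all genes). It was 21 with that denominator, 17 after thinning, 18 in cells of 5000 to 15000 UMIs, 3 after median-ratio scaling and 67 at the lower fold threshold. The 23 lower in mesenchyme at birth (28.8%, beside 40% of all genes) were 12 with that denominator, 38 without cycling cells, 4 after median-ratio scaling and 65 at the lower fold threshold. At that threshold, 11 were higher at E13.5, 18 higher at E14.5, 12 lower at E15.5, and in epithelium at birth 1 was higher and 11 lower. With no level filter, the E13.5 comparison had 1 lower, E14.5 had 1 higher and 1 lower, E15.5 had 2 lower, P0 had 1 lower and 1 higher in mesenchyme at birth. In cells of 5000 to 15000 UMIs, 2 were higher and 5 lower at E14.5 and 5 lower at E15.5. Median-ratio scaling gave 4 lower at E15.5, and the other denominator gave 1 higher at E14.5. The cause of these moves was not tested, apart from what each setting itself leaves out. In the paired fit of the tissues by edgeR, with the library as a replicate block, 0 members were higher and 1 lower in epithelium, and it was 0 and 1 without the block and without TMM. Leaving out each library in turn gave 0 to 1 higher and 1 to 1 lower, and the 1 higher was Rpl12 without E15.5, where 34 members had an unadjusted p below 0.05 by the same test. How many of all genes passed that level was not counted. The E15.5 library was already seen to have the opposite share ratio, so the 34 are no separate support for a tissue difference of the members. No paired analysis of the stages was made, since each has 1 library. Depth limits the paralogs Rpl3l, Rpl10l and Rpl39l, and E14.5 rests on 45 and 31 cells.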
